A study of Mus musculus with 6 samples.

Results

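The tumour necrosis factor (TNF) and death receptor family was described here through 10 genes, chosen by name from the 54532 genes of the deposited expression table: 6 receptors (Tnfrsf1a, Tnfrsf1b, Ltbr, Tnfrsf12a, Tnfrsf10b and Fas), 2 ligands (Fasl and Tnfsf10) and 2 adaptors (Traf1 and Traf2). All 10 were found once and all 10 passed the filter on low values, a mean over all libraries of no less than 0.5 FPKM (fragments normalised to gene length and to the reads of the library). The study sequenced RNA from T cells after co-culture with ID8, a mouse ovarian cancer cell line, to ask how the pretreatment of the cancer cells with a platinum drug bears on the T cells. In the cisplatin group (3 libraries, CIS in the labels) the ID8 cells had been pretreated with 40 µM cisplatin, a DNA crosslinking drug. In the control group (3 libraries, WT in the labels, which names no genotype here) they had been given PBS, a buffer. Both groups shared the T cells: these were taken from spleens of C57BL/6 mice aged 6 to 8 weeks with a kit that removes other cells, held in 10 ng/mL IL-2 and activated for 72 h by beads coated with antibodies to CD3 and CD28. Neither the labels nor the methods say whether libraries of a group came from separate mice or cultures, so the p-values measure the spread between these libraries, which may be technical. ID8 is a single cell line, and the selection by kit does not remove every other cell.

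Receptors of this family sit in the cell membrane and are brought together by trimeric ligands. A part of them, among them TNF receptor 1, Fas and the TRAIL receptor, carries a death domain inside the cell, through which the adaptors Fadd and Tradd and then caspase-8 can be recruited. The others, such as TNF receptor 2, the lymphotoxin beta receptor and Fn14, bind TRAF adaptors directly and lead to NF-kB signalling. In T cells the family is known for activation-induced death through Fas and its ligand, for killing of target cells and for costimulation. The lymphotoxin beta receptor is known from stromal, epithelial and myeloid cells rather than from lymphocytes, and Fn14 from epithelial and mesenchymal cells.

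Rebuilt from the FPKM values, the libraries held 30847321 to 32169496 reads on genes in the cisplatin group and 30606569 to 31255205 in the control group. The T-cell identity of the libraries was checked on 20 markers, of which 20 were higher in the cisplatin group at an adjusted p under 0.05 and 0 reached a 2-fold difference (median log2 fold change 0.55). Their summed level was 2573.6 to 2647.4 FPKM in the cisplatin libraries and 1626.7 to 1746.4 FPKM in the control libraries. Of 18 markers of ID8 cells 15 could be tested, and 14 of them were lower in the cisplatin group, 13 by at least 2-fold. Their summed level was 255.4 to 261.4 FPKM against 1636.8 to 1717.3 FPKM, and Krt19, a keratin of epithelial cells, stood at 52.9 ± 1.46 against 646.1 ± 18.1 FPKM (mean ± SD, n = 3 here and below). Markers of B cells were also present, at a summed 3590.8 to 3669.2 against 1666.5 to 1749.8 FPKM, 8 of 9 higher and 1 lower. Most of this sum was Ighm, at 3220.5 ± 46.7 against 1432.7 ± 38.0 FPKM, the 1 marker of the list that was higher by at least 2-fold. The median log2 fold change of the 9 was 0.66. Of the myeloid markers 9 of 11 tested were higher, 7 by at least 2-fold, and 1 was lower. Their median log2 fold change was 1.35, and the list summed to 132.0 to 150.5 against 67.6 to 72.6 FPKM. NK-cell markers summed to 47.3 to 51.8 against 33.7 to 35.8 FPKM, most of it Gzma at 40.3 ± 2.68 against 29.4 ± 1.15 FPKM. Of these, 2 of 4 tested were higher (Gzma and Klrk1). Ncr1 and Klre1 did not pass (adjusted p 0.22 and 0.42, limma), and Klrb1c was under the filter on low values. No listed marker was at 0 in all libraries. The part of these other cells in the values below was not tested. In libraries of whole cell mixtures, fewer cells of a type and less RNA per cell cannot be told apart.

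The receptors moved in both directions. Tnfrsf1a, Ltbr and Tnfrsf12a were at least 2-fold lower in the cisplatin group, and Tnfrsf1b was slightly lower. Fas, Tnfrsf10b and the ligand Tnfsf10 were slightly higher as deposited, and turned negative when the libraries were scaled so that the T-cell markers were level between the groups (centred), which shifts every log2 fold change by -0.56. The adaptor Traf1 was higher as deposited and stood at 0.04 with the markers centred, Traf2 was slightly lower, and Fasl did not pass the test.

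In all, 3 of the 10 genes were called lower and 0 were called higher, a call being an adjusted p under 0.05 (limma, Benjamini-Hochberg over 15874 tested genes) with at least a 2-fold difference. Over all tested genes, 12.8% were called lower and 4.11% higher. At the adjusted p alone, 5 of the 10 were lower and 4 higher, beside 29.0% and 27.5% of all tested genes. The 3 libraries of a group lay entirely above or below those of the other for 9 of the 10, beside 64.2% of all tested genes. Of the 10, 5 lay below and 4 above, beside 32.3% and 31.9% of all tested genes. The median log2 fold change was 0.00 for the 10 genes and 0.03 for all tested genes. Summed over the 10 genes the level was 162.8 to 171.1 FPKM in the cisplatin libraries and 217.7 to 224.8 FPKM in the control libraries.

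**Figure D1:**
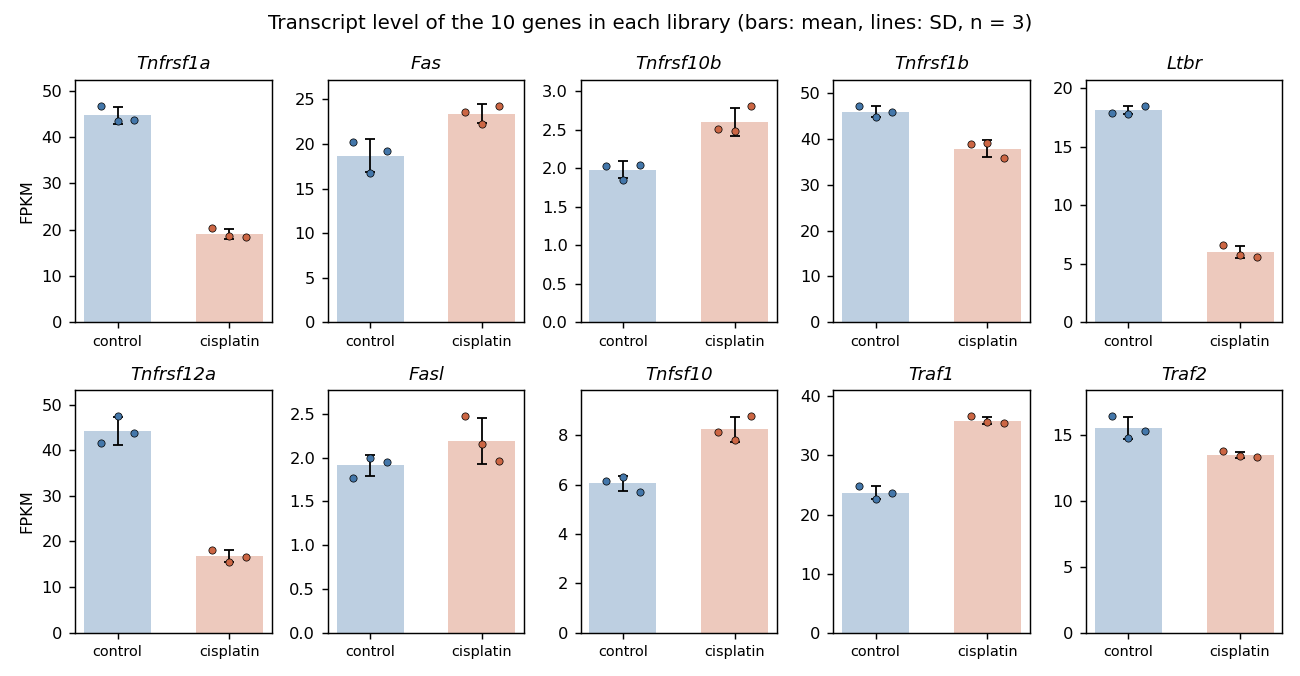
Level of each of the 10 genes in FPKM (vertical axes, linear from 0, one panel a gene) in the 3 cisplatin and 3 control libraries; points are libraries, bars the mean and error bars the SD. The groups are apart in every panel but that of Fasl, whose cisplatin libraries span 1.96 to 2.47 and whose control libraries span 1.77 to 2.0 FPKM.

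Among the receptors with a death domain, Tnfrsf1a (ENSMUSG00000030341), which encodes TNF receptor 1, the main death-domain receptor for TNF, lies on the plus strand at chr6:125349362-125362484 (mm10, as are the coordinates that follow). Its level was 20.4, 18.7 and 18.3 FPKM in cisplatin libraries 1 to 3 and 46.8, 43.5 and 43.8 FPKM in control libraries 1 to 3. All cisplatin libraries lay below all control libraries. The means were 19.1 ± 1.14 and 44.7 ± 1.84 FPKM, a log2 fold change of -1.22 ± 0.05 (SE), with an adjusted p of 3.8e-06 (limma). These levels rest on a mean of 1617 reads in the cisplatin group and 3498 in the control group. Over the 17 alternative settings its log2 fold change stayed between -1.78 and -1.14.

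Fas (ENSMUSG00000024778, chr19:34290659-34327770, plus strand) encodes the receptor for Fas ligand, which triggers caspase-8 through Fadd. Its level was 23.6, 22.3 and 24.3 FPKM in the cisplatin libraries and 20.2, 16.7 and 19.2 FPKM in the control libraries. The groups did not overlap, although the gap between them was smaller than the spread within the control group. The means were 23.4 ± 1.04 and 18.7 ± 1.83 FPKM, a log2 fold change of 0.32 ± 0.08 (SE) with an adjusted p of 0.01 (limma), and -0.24 with the T-cell markers centred.

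Tnfrsf10b (ENSMUSG00000022074, chr14:69767472-69784411, plus strand) encodes the death receptor of mouse TRAIL. It was among the lowest of the 10 genes, at 2.51, 2.48 and 2.81 FPKM in the cisplatin libraries and 2.03, 1.85 and 2.04 FPKM in the control libraries. No cisplatin library reached down to the control range. The log2 fold change was 0.38 ± 0.10 (SE) with an adjusted p of 0.016 (limma), from a mean of 462.3 and 325.7 reads, and -0.18 with the T-cell markers centred. It did not pass the adjusted p without cisplatin library 3 (0.32, adjusted p 0.056, limma) or with the T-cell markers centred (adjusted p 0.16, the range over 16 alternatives being 0.0011 to 0.16).

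Among the 10 genes, the receptors without a death domain were lower in the cisplatin group at the adjusted p in 3 of 3 cases. Of all tested genes, 29.0% were lower at the adjusted p. The count of 3 of 3 holds for these 3 genes only. Of 16 other receptors tested, a list not split by death domain, 3 were lower and 9 higher. Ltbr (ENSMUSG00000030339, chr6:125306571-125313885, minus strand) encodes the lymphotoxin beta receptor, known for building lymphoid organs through non-canonical NF-kB signalling. Its level was 6.55, 5.77 and 5.60 FPKM in the cisplatin libraries and 17.9, 17.8 and 18.5 FPKM in the control libraries. Of the 10 genes it had the largest change, with means of 5.97 ± 0.508 and 18.1 ± 0.348 FPKM, 3.02-fold lower, and a log2 fold change of -1.58 ± 0.07 (SE; adjusted p 2.9e-06, limma). Over the 17 alternatives the value ran from -2.15 to -1.45.

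Tnfrsf12a (ENSMUSG00000023905, chr17:23675445-23677468, minus strand) encodes Fn14, the receptor for the cytokine TWEAK. Its level was 18.2, 15.6 and 16.5 FPKM in the cisplatin libraries and 41.5, 47.4 and 43.7 FPKM in the control libraries. The highest cisplatin library stood far below the lowest control library. The means were 16.8 ± 1.35 and 44.2 ± 2.97 FPKM, 2.63-fold lower, with a log2 fold change of -1.39 ± 0.07 (SE; adjusted p 8e-06, limma). Tnfsf12, the gene of TWEAK itself, was also lower, at 0.977 ± 0.125 against 2.05 ± 0.472 FPKM (log2 fold change -0.98 ± 0.21 SE, adjusted p 0.0067, limma). Tnfsf12 had only 41, 54 and 50 reads in the cisplatin libraries and 107, 104 and 70 in the control libraries. Whether it shares exonic bases with other genes was not examined, so its reads may not all be its own.

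Tnfrsf1b (ENSMUSG00000028599, chr4:145213463-145246870, minus strand) encodes TNF receptor 2, which lacks a death domain and costimulates T cells. It had the highest mean of the 10 genes in both groups, with a range that overlapped that of the next gene, at 38.9, 39.2 and 35.8 FPKM in the cisplatin libraries and 47.3, 44.9 and 46.0 FPKM in the control libraries. The groups were apart, but by less than for Ltbr and Tnfrsf12a. The log2 fold change was -0.28 ± 0.04 (SE), with a 95% interval from -0.39 to -0.17 and an adjusted p of 0.0018 (limma).

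Ltbr and Tnfrsf1a are neighbours on chromosome 6 on opposite strands, with 35476 bases between them. The single annotated gene between them, Scnn1a (chr6:125320659-125344943, plus strand), a subunit of the epithelial sodium channel, was under the filter on low values and was not tested. It had 14, 14 and 28 reads in the cisplatin libraries and 50, 31 and 55 reads in the control libraries, or 0.139 ± 0.061 against 0.362 ± 0.0983 FPKM. None of the 10 genes shares exonic bases with another annotated gene of GENCODE release M21.

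The sequences before the start sites of the receptors called lower, and of Traf1, which had the largest rise of the 10 genes on the deposited scale, are given so that the genes which moved together can be compared by letters. They are RefSeq promoter windows (GRCm38.p6), which reach 250 bases before and 50 after each start and were held for 9 of the 10 genes (none for Tnfrsf10b). Printed is the longest run of the 250 bases before the start without annotated exonic bases of the gene, read 5′ to 3′ on its strand. For Tnfrsf1a this run lies inside the annotated gene, after 36 exonic bases of the window. Capitals mark GGGCGG, the GC box bound by SP factors, on either strand.
Ltbr (chr6:125313886-125314135, minus strand): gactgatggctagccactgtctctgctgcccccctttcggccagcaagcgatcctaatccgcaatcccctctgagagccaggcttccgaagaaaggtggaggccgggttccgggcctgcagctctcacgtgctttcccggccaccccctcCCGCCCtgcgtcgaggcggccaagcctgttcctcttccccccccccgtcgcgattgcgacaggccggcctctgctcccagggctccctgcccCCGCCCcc
Tnfrsf12a (chr17:23677469-23677699, minus strand): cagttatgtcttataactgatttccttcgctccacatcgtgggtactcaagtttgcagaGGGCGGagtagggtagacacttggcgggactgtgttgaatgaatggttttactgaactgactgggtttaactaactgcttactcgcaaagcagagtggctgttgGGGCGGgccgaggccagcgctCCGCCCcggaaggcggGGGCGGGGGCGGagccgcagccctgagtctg
Tnfrsf1a (chr6:125349509-125349722, plus strand): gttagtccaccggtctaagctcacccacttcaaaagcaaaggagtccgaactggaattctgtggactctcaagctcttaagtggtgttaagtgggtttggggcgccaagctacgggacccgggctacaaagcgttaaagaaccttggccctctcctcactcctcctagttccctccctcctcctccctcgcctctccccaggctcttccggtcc
Traf1 (chr2:34961773-34962022, minus strand): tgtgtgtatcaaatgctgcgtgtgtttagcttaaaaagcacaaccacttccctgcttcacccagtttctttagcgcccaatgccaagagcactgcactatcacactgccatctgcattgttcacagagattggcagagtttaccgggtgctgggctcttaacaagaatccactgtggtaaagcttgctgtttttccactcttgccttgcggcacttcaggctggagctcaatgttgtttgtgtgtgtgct

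The Ltbr run was the richest in G and C of these, at 69.2%, and held 2 GC boxes. The Tnfrsf12a run held 5, the last 2 of them adjoining, at 57.6% G and C. The runs of Tnfrsf1a (56.5%) and Traf1 (48%) held none. Over the whole windows, a GC box was in 6 of 9 of the genes and in 35.7% of 32851 RefSeq windows of the same length. The NF-kB motif, GGG and TTCC with 3 letters of any kind between them, was in 1 of 9 (Traf2) and in 5.56% of all windows, and the AP-1 motif TGANTCA in 1 of 9 (Fas) and in 7.81%. The STAT motif TTCNNNGAA was in 3 of 9 (Fas, Tnfrsf1a and Tnfrsf1b) and in 8.3%, in Tnfrsf1a ahead of the printed run. All motifs were searched on both strands, and a match describes letters, not binding.

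The ligands were low and did not fall on the deposited scale. Fasl (ENSMUSG00000000817, chr1:161780689-161788495, minus strand) encodes Fas ligand, with which cytotoxic T cells kill cells that carry Fas. Its level was 2.47, 2.15 and 1.96 FPKM in the cisplatin libraries and 1.77, 2.0 and 1.95 FPKM in the control libraries, from 155, 138 and 123 against 103, 116 and 116 reads. The groups overlapped, since cisplatin library 3 lay within the control range. The log2 fold change of 0.19 ± 0.12 (SE) had a 95% interval from -0.10 to 0.48 and an adjusted p of 0.23 (limma), so that a difference was not detectable here in either direction. Its sign turned with the T-cell markers centred, to -0.37 (adjusted p 0.03, limma), while quantile normalization gave 0.38 (adjusted p 0.034). Over its 16 alternatives the adjusted p ran from 0.03 to 0.53.

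Tnfsf10 (ENSMUSG00000039304, chr3:27317028-27342427, plus strand) encodes TRAIL, the ligand of the receptor of Tnfrsf10b. Its level was 8.14, 7.80 and 8.76 FPKM in the cisplatin libraries and 6.15, 6.30 and 5.71 FPKM in the control libraries. All cisplatin libraries stood above all control libraries. The log2 fold change was 0.44 ± 0.07 (SE; adjusted p 0.0014, limma), and -0.12 with the T-cell markers centred.

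The adaptors moved in opposite directions on the deposited scale, and with the T-cell markers centred Traf1 stood near 0 and Traf2 at -0.76. Traf1 (ENSMUSG00000026875, chr2:34941750-34961772, minus strand) encodes a TRAF protein without the RING domain of the others, which is induced by NF-kB in activated lymphocytes. Its level was 36.6, 35.7 and 35.5 FPKM in the cisplatin libraries and 24.8, 22.6 and 23.7 FPKM in the control libraries. The spread within a group was small beside the distance between them. The log2 fold change was 0.60 ± 0.04 (SE; adjusted p 3e-05, limma), and 0.04 with the T-cell markers centred, beside a median of 0.55 for the T-cell markers themselves on the deposited scale.

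Traf2 (ENSMUSG00000026942, chr2:25517982-25546940, minus strand) encodes the TRAF protein that brings the ubiquitin ligases cIAP1 and cIAP2 to TNF receptors. Its level was 13.8, 13.4 and 13.3 FPKM in the cisplatin libraries and 16.4, 14.8 and 15.3 FPKM in the control libraries. The groups did not overlap. The log2 fold change was -0.19 ± 0.05 (SE; adjusted p 0.013, limma), the smallest difference among the genes that passed. It did not pass with quantile normalization (-0.09, adjusted p 0.2), with limma's voom on rebuilt reads (-0.11, adjusted p 0.079) or with FPKM rescaled by those reads (-0.11, adjusted p 0.1).

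**Figure D2:**
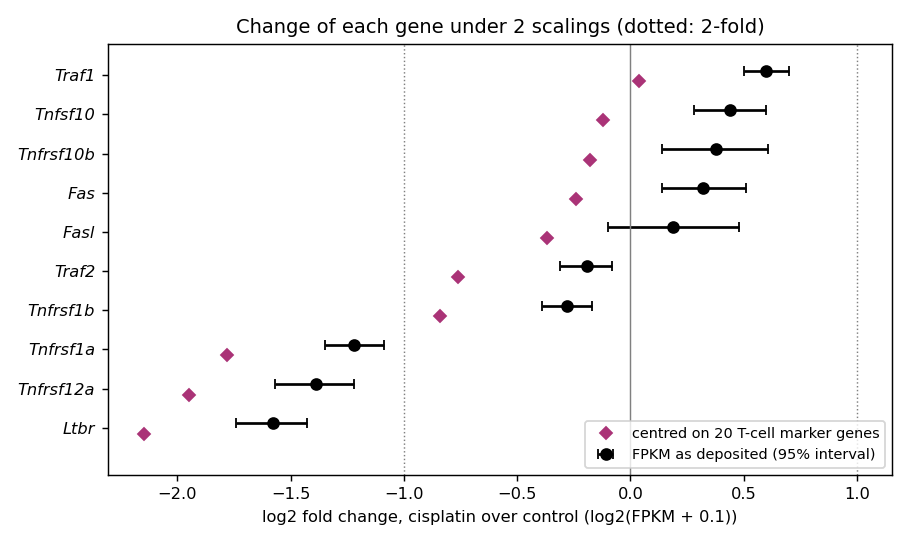
Log2 fold change, cisplatin against control, of the 10 genes (horizontal axis) in the deposited scaling with 95% intervals and with the T-cell markers centred. Dotted lines mark 2-fold. Ltbr, Tnfrsf12a and Tnfrsf1a lie below -1 in both, and Traf1 moves from 0.60 to 0.04.

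The order of the levels also differed between the groups. In the control libraries Tnfrsf1b, Tnfrsf1a and Tnfrsf12a led with means of 46.0, 44.7 and 44.2 FPKM, and neighbours among these had overlapping ranges. Traf1 (23.7 FPKM) came next, followed by Fas (18.7 FPKM) and Ltbr (18.1 FPKM), whose ranges overlapped. Traf2 (15.5 FPKM) and Tnfsf10 (6.05 FPKM) stood apart from their neighbours, and Tnfrsf10b (1.98 FPKM) and Fasl (1.91 FPKM) overlapped at the bottom. In the cisplatin libraries Tnfrsf1b (37.9 FPKM) and Traf1 (35.9 FPKM) overlapped at the top. Below them came Fas (23.4), Tnfrsf1a (19.1), Tnfrsf12a (16.8), Traf2 (13.5), Tnfsf10 (8.23), Ltbr (5.97), Tnfrsf10b (2.60) and Fasl (2.19 FPKM), with no overlap between neighbours. FPKM is a level per length, so genes can be ranked on it.

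Because a ratio of genes within a library does not depend on the scaling between libraries, 5 such ratios were compared, as differences of log2(FPKM + 0.1). An exact permutation test of 3 against 3 libraries cannot give a p under 0.1, so none of these could pass. The log2 ratio of Tnfrsf1b to Tnfrsf1a, the receptors for TNF, was 0.93, 1.06 and 0.97 in the cisplatin libraries and 0.02, 0.05 and 0.07 in the control libraries. TNF receptor 2 and TNF receptor 1 transcripts were thus near equal in the control libraries and about 1 log2 unit apart in the cisplatin libraries, with no overlap (difference 0.94, two-sided exact permutation p = 0.1, adjusted over the ratios 0.1667). The ratio of Traf1 to Traf2 was 1.41, 1.40 and 1.41 against 0.59, 0.61 and 0.63, likewise with no overlap (difference 0.79, two-sided exact permutation p = 0.1, adjusted 0.1667). The mean of the receptors without a death domain over that of the receptors with one was 0.64, 0.58 and 0.46 against 1.38, 1.58 and 1.46 (difference -0.91, two-sided exact permutation p = 0.1, adjusted 0.1667).

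The ratios of ligand to receptor did not separate the groups. Fasl to Fas was -3.20, -3.31 and -3.57 in the cisplatin libraries and -3.44, -3.0 and -3.23 in the control libraries (difference -0.14, two-sided exact permutation p = 0.5). Tnfsf10 to Tnfrsf10b was 1.66, 1.61 and 1.61 against 1.55, 1.71 and 1.44 (difference 0.06, two-sided exact permutation p = 0.5). In both cases the ranges of the groups overlapped.

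**Figure D3:**
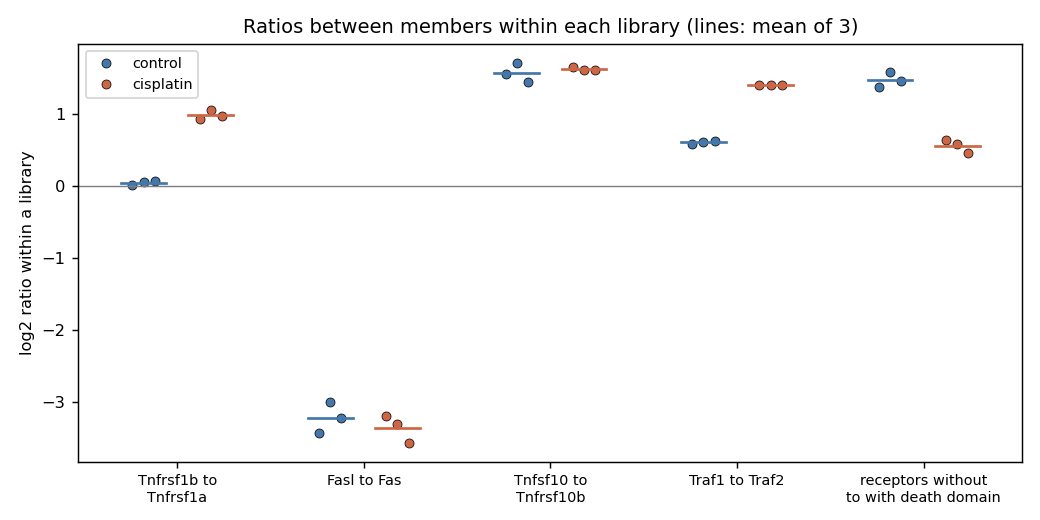
The 5 within-library ratios (vertical axis, log2 ratio; one point a library, with the mean). The ratios of TNF receptors, of TRAF adaptors and of receptor classes are apart between the groups, and the ratios of ligand to receptor overlap.

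Beyond the 10 genes, 22 other receptors of the family were listed and 16 passed the filter on low values. Over all tested genes, 29.0% were lower and 27.5% higher at the adjusted p, with a median log2 fold change of 0.03 (-0.53 with the T-cell markers centred). Of the 16 other receptors, 3 were lower, 9 higher and 4 did not pass at the adjusted p. Their median log2 fold change was 0.42 (-0.14 with the T-cell markers centred). Those lower were Tnfrsf23, a decoy receptor for TRAIL, Tnfrsf21 (death receptor 6) and Tnfrsf9 (4-1BB, a T-cell costimulator). Tnfrsf9 (adjusted p 0.012, limma) did not pass at every setting, with an adjusted p of up to 0.096 over 17 alternatives. Tnfrsf23 was at 3.70 ± 0.48 against 13.4 ± 1.04 FPKM (log2 fold change -1.84 ± 0.11 SE, adjusted p 1.3e-05, limma). Tnfrsf26, a neighbour of the same gene cluster, was at 28.5 ± 1.22 against 11.9 ± 0.954 FPKM (1.25 ± 0.07 SE, adjusted p 8e-06, limma, and 0.69 with the T-cell markers centred). Both share exonic bases with the antisense gene E230032D23Rik (164 of 3962 and 107 of 3218), and with strand counting not stated the reads of these cannot be told apart. Reads may also be split between the similar genes of that cluster, so both values are uncertain. Cd40, the costimulatory receptor of B cells and myeloid cells, was at 2.47 ± 0.417 against 1.10 ± 0.189 FPKM (1.10 ± 0.18 SE, adjusted p 0.0018, limma, and 0.97 without cisplatin library 2), beside the higher B-cell and myeloid markers. Among T-cell costimulators, Tnfrsf14, Cd27 and Tnfrsf4 (OX40) rose by log2 fold changes of 0.94, 0.73 and 0.38, Tnfrsf18 (GITR) did not pass at 0.05 and Tnfrsf9 was lower at -0.20, while with the T-cell markers centred Tnfrsf14 and Cd27 stood at 0.37 and 0.17 and Tnfrsf4, Tnfrsf18 and Tnfrsf9 at -0.19, -0.51 and -0.76.

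Of 16 other ligands, 12 were tested, of which 3 were lower, 6 higher and 3 did not pass, beside 29.0% lower and 27.5% higher of all tested genes. The median of the 12 ligands was 0.48, and -0.08 with the T-cell markers centred. Those lower were Tnfsf13, Tnfsf12 and Tnfsf9. Tnfsf13, the gene of the B-cell survival factor APRIL, was at 1.01 ± 0.0596 against 5.79 ± 0.655 FPKM (-2.40 ± 0.11 SE, adjusted p 4.9e-06, limma), but shares 983 of its 1637 exonic bases with Tnfsfm13 and 221 with the antisense Tnfsf13os, so its reads cannot be assigned with certainty. Tnfsf8, the ligand of CD30, was at 38.7 ± 0.756 against 19.0 ± 1.04 FPKM (1.02 ± 0.05 SE, adjusted p 4.7e-06, limma, 0.46 with the T-cell markers centred and 0.98 without control library 1). Of the ligands of the TNF receptors and of the lymphotoxin beta receptor, Tnf rose on the deposited scale from 3.20 to 4.76 FPKM, Lta from 5.94 to 8.51 FPKM and Ltb from 226.3 to 402.1 FPKM, while with the T-cell markers centred Tnf and Lta stood at -0.01 and -0.05 and Ltb at 0.27 on the log2 scale.

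Of 25 genes of receptor signalling, 25 were tested, with 4 lower, 15 higher and 6 that did not pass. Of all tested genes 29.0% were lower and 27.5% higher. The median of the 25 genes was 0.21, and -0.35 with the T-cell markers centred. Those lower were Tnip1, Ikbkg, Tab1 and Map3k14. Map3k14, at -0.21 (adjusted p 0.02, limma), did not pass at every setting, with an adjusted p of up to 0.15 over 17 alternatives. Tnip1, a ubiquitin-binding inhibitor of NF-kB signalling, had the largest change, at 59.4 ± 1.23 against 119.6 ± 2.76 FPKM (-1.01 ± 0.03 SE, adjusted p 8e-07, limma, and -0.99 without cisplatin library 1 or control library 1). Ikbkg, the regulatory subunit of the IKK complex, was at 12.1 ± 0.418 against 21.7 ± 1.37 FPKM. Tradd and Ripk1, the first proteins recruited by TNF receptor 1, did not pass, with -0.02 and 0.11 on the log2 scale (adjusted p 0.75 and 0.22, limma). They passed as lower with the T-cell markers centred, at -0.58 and -0.46, near the median of -0.53 for all tested genes at that scaling. The higher genes, among them Otulin, Rbck1 and Map3k5, had log2 fold changes of at most 0.59 (Traf5), and with the T-cell markers centred 0 of the 25 were higher at the adjusted p.

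Of 19 genes of death signalling, 19 were tested, with 3 lower, 7 higher, 9 that did not pass and 0 called at 2-fold. Of all tested genes 29.0% were lower, 27.5% higher and 16.9% called at 2-fold. The median of the 19 genes was 0.11, and -0.45 with the T-cell markers centred. Those lower were Mlkl, the executioner of necroptosis, Casp6 and Daxx. Mlkl was at 10.3 ± 0.493 against 19.3 ± 0.559 FPKM (-0.90 ± 0.05 SE, adjusted p 9.4e-06, limma). For the core of the death-inducing complex the values were small. Fadd and Cflar did not pass (0.11 and 0.08 on the log2 scale, adjusted p 0.54 and 0.11, limma). Casp8 was at 0.19 (adjusted p 0.049, limma, and up to 0.13 over 17 alternatives). With the T-cell markers centred Fadd, Cflar and Casp8 passed as lower, at -0.45, -0.48 and -0.37. At that scaling the median of all tested genes was -0.53, so these genes did not fall more than the typical gene. Bax, a pore-forming protein of mitochondrial apoptosis, was at 49.3 ± 1.66 against 31.7 ± 0.499 FPKM (0.63 ± 0.04 SE, adjusted p 1.1e-05, limma, and 0.07 with the T-cell markers centred).

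**Figure D4:**
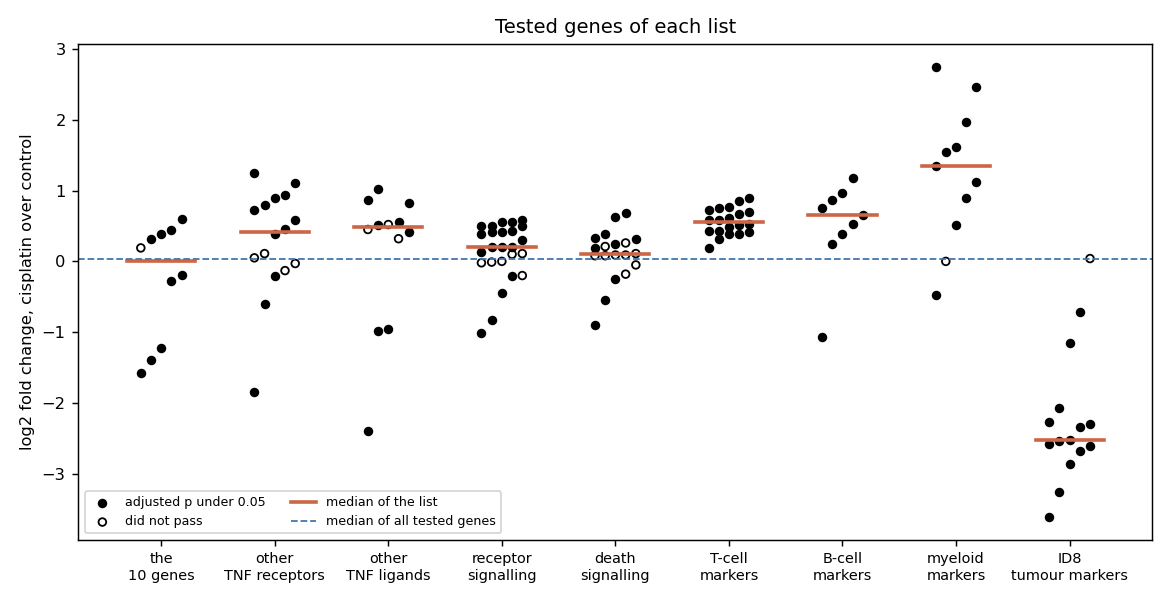
Log2 fold change, cisplatin against control, of every tested gene of the family lists and of the T-cell, B-cell, myeloid and ID8 marker lists (one point a gene, with the median of each list). The NK-cell markers are not shown. In the deposited scaling the T-cell markers lie above 0 and the ID8 markers, with a median of -2.52, lie lowest.

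The genes whose values over the 6 libraries were most like those of the 3 receptors called lower were found among 7657 protein-coding genes whose mean was 5 FPKM or more, by the root mean square difference of centred log2 values. For Tnfrsf1a these were Ppp2r5b (0.013) and Nfic (0.04), for Ltbr Slc44a1 (0.04) and Adam9 (0.048), and for Tnfrsf12a Sh3pxd2a (0.05) and Vim (0.052). Vim, which encodes the intermediate filament vimentin, fell from 282.1 to 107.9 FPKM, a log2 fold change of -1.39.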

How the data were processed

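RNA was sequenced from 6 libraries of T cells co-cultured with ID8 cells, 3 a group, grouped by the sample labels. Per the labels, the authors cleaned reads with fastp, aligned them to mm10 with HISAT2 2.0.5 and counted them with featureCounts 1.5.0-p3, whereas the methods of the study name LifeScope. Strand and multi-mapping settings are not given in the sources used here. The authors deposited FPKM values, read counts normalised to the length of each gene and to the size of the library. Whole reads could be rebuilt for 100% of values (within 0.1), and cover counting error only. The gene coordinates equal those of GENCODE M21 for 53499 of 54409 genes.

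Tests used limma 3.58.1 (R 4.3.3; lmFit, eBayes with trend) on log2(FPKM + 0.1), which understates changes of low genes, over 15874 genes averaging 0.5 FPKM or more, with Benjamini-Hochberg adjustment. A call needed an adjusted p under 0.05 and a 2-fold difference. Ratios were tested by exact permutation. The steps were tested on simulated data. The members and lists were chosen with earlier results of these data known. Named were the 10 members, up to 5 of the largest calls of each family list with a mean of at least 1 FPKM, counts of 5 or fewer, and the 2 most similar genes for each called member, and other list genes were named as examples after their values were seen. Alternatives were pseudocounts 1 and 0.01, other filters, median of ratios, quantile normalization, T-cell marker centring, voom on rebuilt reads, no variance trend, the adjusted p alone, leaving out each library and the replicate block. Rescaling by rebuilt reads was added after the data were seen. Python 3.11.15, pandas 2.3.3 and scipy 1.17.1 were used.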

Additional observations from a re-analysis of the deposited data

How the results depend on the processing

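Alternative values were counted for 16 genes, the 10 members and Tnfrsf23, Tnfrsf26, Cd40, Tnfsf13, Tnfsf8 and Tnip1. Other genes named above are not in these counts. Of the 268 alternative values for the 16 genes, 258 kept their direction and their side of the adjusted p of 0.05. Of the rest, 5 no longer passed it, 1 newly passed it and 4 reversed. The 4 that reversed did so with the T-cell markers centred: Fas at -0.24, Tnfrsf10b at -0.18, Fasl at -0.37 and Tnfsf10 at -0.12. Of the 151 alternative values for the 9 genes called at 2-fold, 12 were under 2-fold, for 4 genes. These were Cd40 (0.72 with a pseudocount of 1, 0.54 centred, 0.97 without cisplatin library 2), Tnfsf8 (0.99 with a pseudocount of 1, 0.46 centred, 0.98 without control library 1), Tnfrsf26 (0.69 centred) and Tnip1 (-0.998 with a pseudocount of 1, -0.93 with voom, -0.92 rescaled by reads, -0.99 without cisplatin library 1 or control library 1). That scaling of the T-cell markers moves the median log2 fold change of all tested genes from 0.03 to -0.53, quantile normalization moves it to 0.16, and the reads-based scalings to 0.11 and 0.10. Relative to the median of all genes, Fas stood at 0.30, Tnfrsf10b at 0.35, Tnfsf10 at 0.41 and Traf1 at 0.57. Of all tested genes 2034 were called lower and 653 higher, against 3649 and 146 with the T-cell markers centred, 903 and 242 at a mean of at least 5 FPKM, and 4603 and 4360 at the adjusted p alone. Called higher were 311 with a pseudocount of 1 and 1127 with voom. At the adjusted p alone 5 of the 10 genes were lower and 4 higher. At the adjusted p with the T-cell markers centred, 7 other receptors were lower and 6 higher, and 3 other ligands lower and 2 higher. There 19 receptor signalling genes were lower and 0 higher, and 16 death signalling genes were lower and 0 higher. These counts stand beside the median of -0.53 for all tested genes at that scaling, whose share past the adjusted p was not counted. At a mean of at least 5 FPKM, 0 other ligands were lower and 3 higher, and Fasl and Tnfrsf10b could not be tested. With voom 11 death signalling genes were higher. Leaving out a library moved the ratio of Tnfsf10 to Tnfrsf10b between -0.01 (without control library 3) and 0.13. Libraries with the same replicate number did not deviate together (correlations 0.02, -0.06 and -0.02). Whether the number pairs them is not stated, and these values cannot tell, since paired libraries need not share a visible deviation. With the replicate number as a block 3 of the 10 genes were called lower, 0 higher, with 2011 and 651 over all genes. The cause of these changes was not tested, beyond the shift that each scaling applies.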

Other observations

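10 further genes of the family were under the filter on low values and were not tested. Among the ligands, Cd70, which costimulates T cells through CD27, had 9, 16 and 16 reads in the cisplatin libraries and 0, 2 and 1 in the control libraries. Tnfsf18, the ligand of GITR, had 5, 12 and 24 against 5, 9 and 2 reads, and Tnfsf15 had 18, 20 and 20 against 14, 16 and 0 reads. Among the receptors, Tnfrsf11a, which encodes RANK, had 90, 51 and 76 against 113, 63 and 60 reads. Tnfrsf17, the BCMA gene of plasma cells, had 8, 2 and 6 against 0, 0 and 2 reads. At these depths the groups overlap for Tnfsf18, Tnfrsf17 and Tnfrsf11a, and a difference was not detectable there.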
